A study of Homo sapiens with 15 samples.

Results

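The genes described here encode 9 transcription factors of the ATF4 pathway (ATF4, ATF3, ATF5, DDIT3, CEBPB, CEBPG, JDP2, NUPR1 and NFE2L1) and the pseudokinase TRIB3. They are 10 of 19775 genes with a probe set of their own on the array. All non-control probe sets annotated to 1 of the 10 alone were taken, matched by Entrez gene number, which gave 20 of 54613. RNA came from THP-1, an established human cell line of acute monocytic leukaemia origin, often used as a stand-in for monocytes. Cells were exposed to infliximab for 6 h, to infliximab for 24 h, to CDP870 for 6 h or to CDP870 for 24 h, or were left untreated and taken at 0 h. Each of the 5 groups held 3 arrays, called biological replicates in the design text. The agents are TNF binders of different build, infliximab being a complete chimeric IgG1 and CDP870, also named certolizumab pegol, a Fab' carrying polyethylene glycol and no Fc. Doses are not given in the sources used, and there was no untreated culture at 6 or 24 h, so the agent and the time in culture cannot be told apart in a comparison with 0 h. All groups are a single cell line, and no label describes how the cultures were separated, so the p-values reflect the spread among these samples, which may be technical.

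In the integrated stress response, kinases that sense amino acid shortage, endoplasmic reticulum stress, haem shortage or viral RNA phosphorylate the initiation factor eIF2alpha. Most translation then slows, while the mRNAs of ATF4 and ATF5 are translated better because of short upstream reading frames. ATF4 is a basic leucine zipper (bZIP) factor that binds DNA as a dimer, often with a C/EBP protein, at composite elements in genes of amino acid synthesis, transport and redox balance. Among its targets are further bZIP factors, such as ATF3 and DDIT3 (CHOP), and TRIB3, which binds ATF4 and CHOP and dampens them. In monocytes the C/EBP factors, CEBPB above all, also act in differentiation and inflammatory gene expression.

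The composite element is a site through which ATF4 pathway genes can act on each other. It was looked for in the RefSeq promoter table (GRCh38.p14), over the 250 bases before each start site. The letters searched were TGATGNAA on both strands. They were found in 1104 of 35116 promoter windows (3.14%), or in 1061 of 27305 genes (3.89%). Of the 9 member genes in the table, 3 had a match, in 3 of their 21 windows. The 3 windows are printed below 5′ to 3′ on the plus strand, which is the strand of each gene, with the match in capitals. That of ATF3 is chr1:212565157-212565406, that of CEBPG is chr19:33373863-33374112 and that of JDP2 is chr14:75427772-75428021.
ATF3: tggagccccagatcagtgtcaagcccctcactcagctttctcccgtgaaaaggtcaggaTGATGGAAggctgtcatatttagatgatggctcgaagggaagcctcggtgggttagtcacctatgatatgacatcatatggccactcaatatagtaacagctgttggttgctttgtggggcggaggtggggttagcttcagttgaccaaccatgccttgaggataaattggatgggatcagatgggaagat
CEBPG: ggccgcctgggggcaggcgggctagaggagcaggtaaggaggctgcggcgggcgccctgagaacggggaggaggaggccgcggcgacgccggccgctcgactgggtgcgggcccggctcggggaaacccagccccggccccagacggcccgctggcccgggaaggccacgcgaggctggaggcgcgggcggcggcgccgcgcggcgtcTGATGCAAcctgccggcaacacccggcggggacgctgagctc
JDP2: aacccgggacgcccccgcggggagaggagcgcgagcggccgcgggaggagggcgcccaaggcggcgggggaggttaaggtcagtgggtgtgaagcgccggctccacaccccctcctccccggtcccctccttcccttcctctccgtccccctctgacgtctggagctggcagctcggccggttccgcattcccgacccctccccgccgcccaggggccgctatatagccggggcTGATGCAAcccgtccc
The match began 191 bases before the start site of its window in ATF3, 42 before it in CEBPG and 16 before it in JDP2. In CEBPG and JDP2 the window lies inside the gene, after its first base (33373709 and 75426943). The start site meant there is thus not the first of the gene. It read TGATGGAA in ATF3 and TGATGCAA in CEBPG and JDP2. Of 27 ATF4 target genes in the table, 6 held the element in a window. The cAMP response element TGACGTCA, searched on both strands, was in none of the windows of the 9 members and in 1.65% of all windows. The AP-1 element TGANTCA, also searched on both strands, was in windows of ATF5 and DDIT3 and in 6.57% of all windows. A match describes letters and does not show that a factor binds there, and sites outside these windows were not searched.

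Values are log2 summaries of probe sets as deposited, so a difference of 1 is a 2-fold difference, and values of different probe sets are not set against each other as amounts. Array medians lay between 2.93 and 3.07. A probe set was tested if it lay above its array's median on at least 3 of the 15 arrays, which kept 28897 probe sets and 18 of the 20 members. The 18 were above the median on all arrays, apart from the ATF3 probe set 202672_s_at, which was above it on 2 of 3 arrays with CDP870 at 6 h and 2 of 3 at 0 h. The untested members were the ATF3 probe set 1554420_at, at 2.16 to 2.82, and the JDP2 probe set 239085_at, at 2.18 to 2.88, neither above the median on any array. Of the monocyte markers measured, SPI1, LYZ, ITGAM, CSF1R and MNDA were above the median on all 15 arrays and CD14 on 2. CD3D and CD3E (T cell), CD79A and CD79B (B cell), HBB (erythroid) and COL1A1 (fibroblast) were above it on all 15 as well. The other measured genes of these lists were not. CD3G and CD2 (T cell), MS4A1 (B cell) and COL1A2 and COL3A1 (fibroblast) were above it on 0 arrays, ALAS2 (erythroid) on 5 and DCN (fibroblast) on 4. A position above the median alone therefore does not mark monocytes. The arrays of infliximab at 24 h had mean correlations of 0.974 to 0.979 with their own group, against 0.985 to 0.994 elsewhere. The hybridisation spike-ins averaged 7.75 ± 0.04 (SD, n = 3) with infliximab at 6 h, 7.51 ± 0.15 with infliximab at 24 h, 7.5 ± 0.12 and 7.6 ± 0.20 with CDP870 at 6 and 24 h, and 7.38 ± 0.13 at 0 h. Of the other cell types checked, an epithelial list moved with the agents: its mean log2 value ranged over 6.37 to 6.57 and 6.45 to 6.55 with infliximab at 6 and 24 h, 5.53 to 5.74 and 5.62 to 5.70 with CDP870 at 6 and 24 h, and 5.96 to 6.14 at 0 h. Of its 6 genes, 5 (EPCAM, KRT5, KRT8, KRT18 and KRT19) were above the median on all 15 arrays in THP-1 cells of every group and CDH1 on none. The log2 difference of 3′ minus 5′ probe sets of ACTB and GAPDH was 0.26 for infliximab 24 h replicate 6 and -0.12 to 0.03 on the other arrays. The spike-in level was used as a covariate in an alternative fit given below. The part of the other measures in the results was not tested.

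With infliximab the mRNAs of most of these genes were higher than in untreated cells, and with CDP870 none passed the test. At 6 h of infliximab 11 of 18 tested member probe sets were higher than at 0 h and none lower, against 8.42% of all tested probe sets called (4.02% higher and 4.4% lower). At 24 h 11 of 18 were again higher and none lower, against 6.57% of all tested (3.78% higher and 2.79% lower). Rises of at least 2-fold were found in 6 of 18 at each time, against 0.523% of all tested at each time. The median log2 change of the 18 was 0.74 at 6 h and 0.82 at 24 h, where the median of all tested probe sets was -0.04 and -0.02. In 13 of 18, from 9 genes, each of the 6 infliximab arrays lay above each of the other 9, against 3.99% of all tested. In RNA of whole cultures, a change in the cells' make-up and a change in RNA per cell cannot be told apart.

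**Figure D1:**
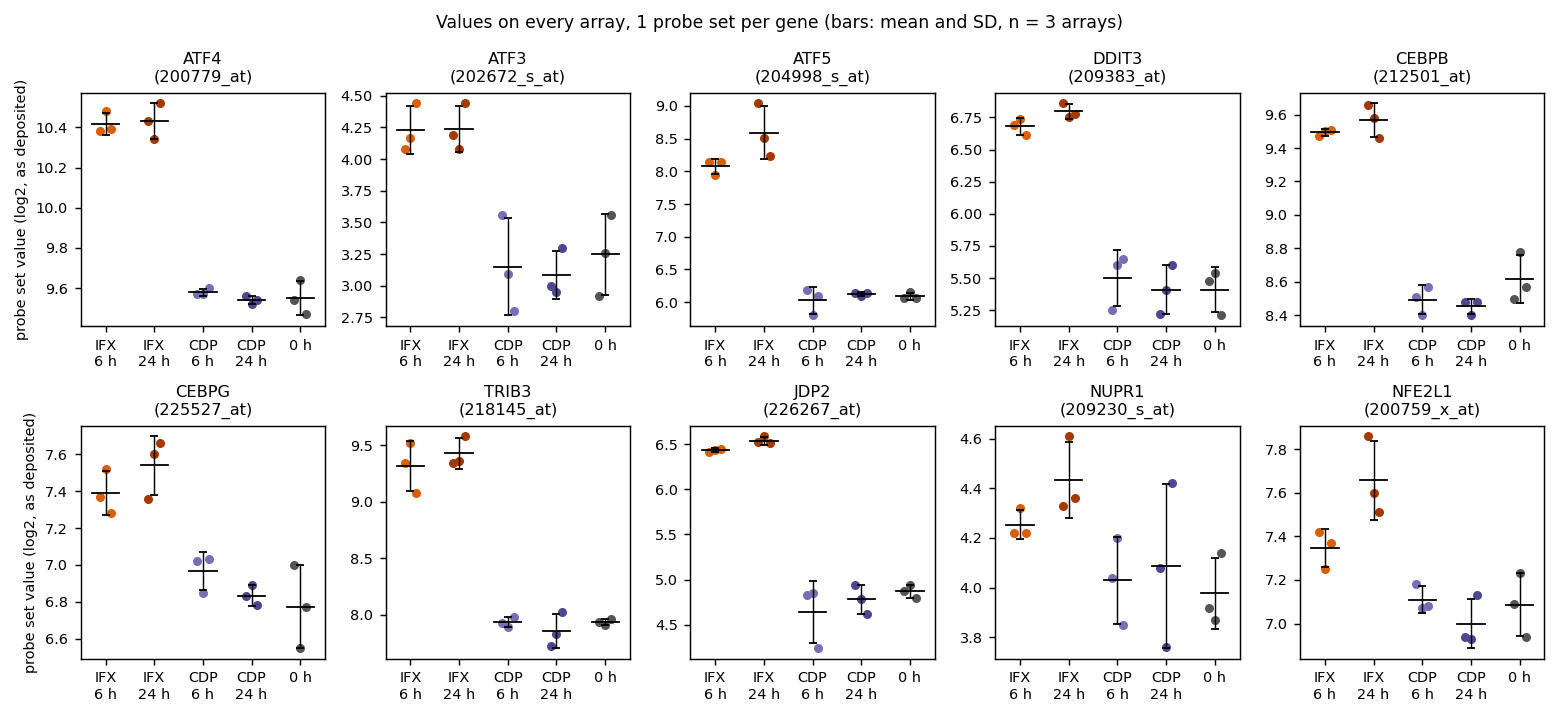
Deposited log2 values of 1 probe set per gene on every array (vertical axes, 1 panel per gene, each with its own scale) for infliximab (IFX) at 6 and 24 h, CDP870 (CDP) at 6 and 24 h and untreated cells at 0 h. Points are arrays and bars are the mean and SD (n = 3). Each panel shows the gene's tested probe set of highest mean, except that of ATF3. For ATF3 the probe set 202672_s_at is drawn because it was called. It stands in place of 1554980_a_at, which was not called (log2 change 0.07 and 0.01 with infliximab at 6 and 24 h). ATF4 lies between 10.34 and 10.52 on the infliximab arrays and between 9.47 and 9.64 on all others.

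ATF4 itself, on chromosome 22 (39520559 to 39522686, GRCh38.p14), was higher with infliximab at the mRNA level. Its probe set 200779_at read 10.38, 10.48 and 10.39 with infliximab at 6 h and 10.43, 10.34 and 10.52 at 24 h. It read 9.57, 9.57 and 9.60 with CDP870 at 6 h, 9.56, 9.52 and 9.54 with CDP870 at 24 h, and 9.54, 9.64 and 9.47 at 0 h. All 6 infliximab arrays lay above the other 9, and the CDP870 and 0 h arrays overlapped. The log2 change from 0 h was 0.87 ± 0.08 (SE, n = 3 and 3, limma adjusted p = 1.7e-05) at 6 h, or 1.82-fold. At 24 h it was 0.88 ± 0.08 (limma adjusted p = 1.19e-05), or 1.84-fold.

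ATF5, a bZIP factor whose translation is controlled like that of ATF4 and which is known for its part in the mitochondrial stress response, had the largest changes among the members on 2 of its 4 probe sets. The gene lies on chromosome 19 (49928906 to 49933935). Its probe set 204998_s_at read 8.15, 7.94 and 8.14 with infliximab at 6 h and 9.04, 8.51 and 8.23 at 24 h. It read 6.18, 5.80 and 6.10 with CDP870 at 6 h, 6.14, 6.09 and 6.14 with CDP870 at 24 h, and 6.06, 6.15 and 6.06 at 0 h. The infliximab arrays stood well above all others, and the 24 h arrays were above the 6 h arrays. The rise over 0 h was 3.96-fold at 6 h (log2 1.99 ± 0.16 SE, limma adjusted p = 4.76e-06) and 5.67-fold at 24 h (log2 2.50 ± 0.16 SE, limma adjusted p = 3.94e-07). A further probe set, 204999_s_at, rose by 1.75 ± 0.36 (SE, adjusted p = 0.00847) at 6 h and by 2.64 ± 0.36 (SE, adjusted p = 0.000529) at 24 h. Its 3 arrays with infliximab at 24 h were spread from 6.98 to 8.97, with replicate 5 at the top. The remaining ATF5 probe sets did not show this pattern. 230938_x_at ranged from 4.96 to 5.62 and 217389_s_at from 3.43 to 4.03 over the 15 arrays, with overlap of all groups. Their changes with infliximab lay between -0.10 and 0.16, with limma adjusted p from 0.527 to 0.977. As a mean over the 4 probe sets ATF5 rose by 0.97 at 6 h and 1.3 at 24 h (limma adjusted p = 0.00138 and 0.000121), less than the gene means of JDP2, TRIB3 and DDIT3. An ending of _s_at or _x_at marks probes that also match other transcripts, and where the probes lie in ATF5 was not analysed here.

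ATF3, an early stress factor that often represses as a homodimer, was split in the same way. It lies on chromosome 1 (212565407 to 212620777). The probe set 202672_s_at read 4.08, 4.17 and 4.44 with infliximab at 6 h and 4.19, 4.08 and 4.44 at 24 h. It read 3.56, 3.09 and 2.80 with CDP870 at 6 h, 3.00, 2.95 and 3.30 with CDP870 at 24 h, and 2.92, 3.26 and 3.56 at 0 h. These values are near the array median outside the infliximab groups, yet no infliximab array overlapped the rest. It rose by 0.98 ± 0.19 (SE, limma adjusted p = 0.00685) at 6 h and by 0.99 ± 0.19 (adjusted p = 0.00729) at 24 h. The probe set 1554980_a_at, which has the higher mean, read 3.56 to 3.97 and 3.69 to 3.81 with infliximab at 6 and 24 h, 3.94 to 4.23 and 3.81 to 4.27 with CDP870 at 6 and 24 h, and 3.49 to 4.02 at 0 h. Its changes with infliximab were 0.07 and 0.01 (limma adjusted p = 0.828 and 0.974), so a direction for ATF3 rests on 1 of its 2 tested probe sets.

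**Figure D2:**
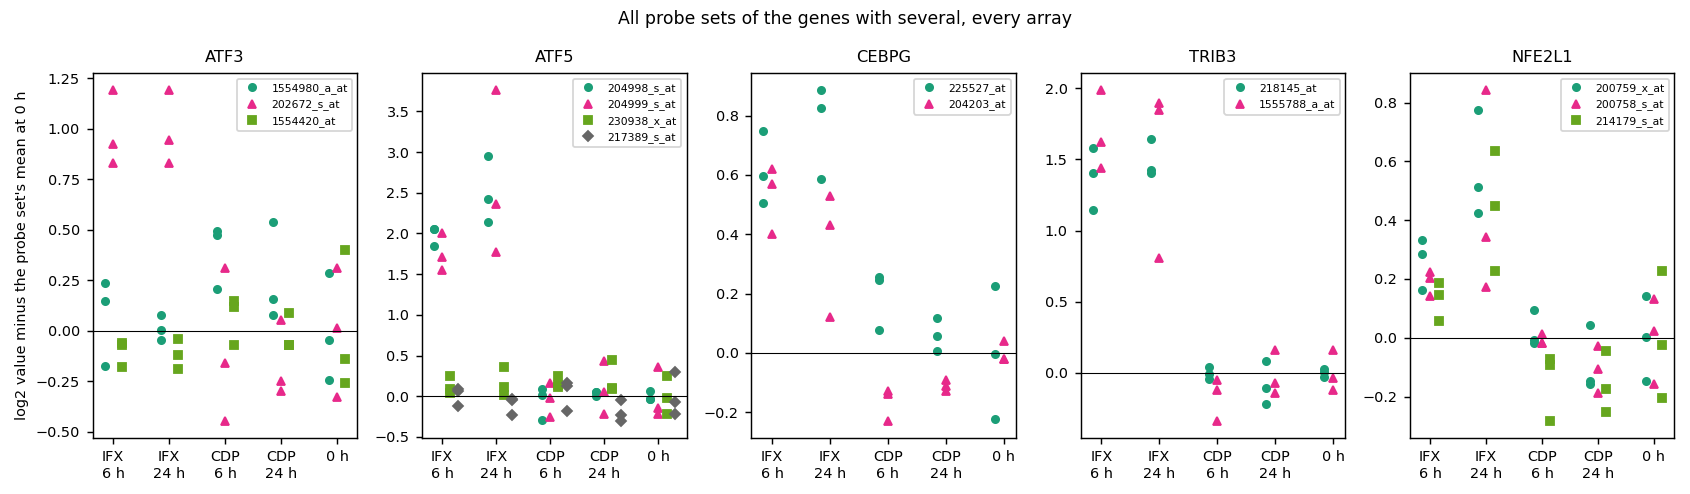
All probe sets of ATF3, ATF5, CEBPG, TRIB3 and NFE2L1, which have several each, on every array, as the log2 value minus the probe set's own mean at 0 h (vertical axes). JDP2, which also has several, is not drawn. Groups run along the horizontal axes, points are arrays, and marker shapes and colours are probe sets. In ATF5, 204998_s_at and 204999_s_at rise with infliximab (log2 1.99 and 1.75 at 6 h), whereas 230938_x_at and 217389_s_at stay near 0 (0.12 and 0.01).

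DDIT3 encodes CHOP, a C/EBP-like factor that pairs with other C/EBPs and is tied to cell death in prolonged stress. On chromosome 12 (57516588 to 57520517), it has a single probe set, 209383_at. Its values were 6.69, 6.74 and 6.61 with infliximab at 6 h and 6.86, 6.75 and 6.78 at 24 h. They were 5.25, 5.60 and 5.65 with CDP870 at 6 h, 5.22, 5.41 and 5.60 with CDP870 at 24 h, and 5.48, 5.54 and 5.21 at 0 h. No infliximab array overlapped the others, and the rise was 2.41-fold at 6 h (log2 1.27 ± 0.13 SE, limma adjusted p = 3.41e-05) and 2.61-fold at 24 h (log2 1.39 ± 0.13 SE, limma adjusted p = 1.17e-05).

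The C/EBP partners were higher too. CEBPB, a factor of monocyte differentiation and inflammation on chromosome 20 (50190583 to 50192690), read 9.47, 9.50 and 9.51 with infliximab at 6 h and 9.66, 9.58 and 9.46 at 24 h on 212501_at. It read 8.51, 8.40 and 8.57 with CDP870 at 6 h, 8.48, 8.40 and 8.48 with CDP870 at 24 h, and 8.50, 8.78 and 8.57 at 0 h. The infliximab arrays were above all others, and the CDP870 arrays at 24 h were below those at 0 h, a difference of -0.16 that did not pass. CEBPB rose by 0.88 ± 0.09 (SE, limma adjusted p = 5.67e-05) at 6 h and by 0.95 ± 0.09 (adjusted p = 2.1e-05) at 24 h. CEBPG, a short C/EBP protein that pairs with ATF4, lies on chromosome 19 (33373709 to 33382686). Its probe set 225527_at read 7.37, 7.52 and 7.28 with infliximab at 6 h and 7.36, 7.60 and 7.66 at 24 h. It read 7.02, 6.85 and 7.03 with CDP870 at 6 h, 6.83, 6.89 and 6.78 with CDP870 at 24 h, and 7.0, 6.55 and 6.77 at 0 h. Here again the infliximab arrays stood above the rest. It rose by 0.62 ± 0.12 (SE, limma adjusted p = 0.00628) at 6 h and by 0.77 ± 0.12 (adjusted p = 0.00169) at 24 h. The probe set 204203_at rose by 0.53 ± 0.10 (adjusted p = 0.00637) at 6 h, and at 24 h its change of 0.36 ± 0.10 did not pass (adjusted p = 0.0506). Without infliximab 24 h replicate 6, its lowest array with infliximab at 24 h, the change was 0.48 (adjusted p = 0.0107).

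TRIB3, on chromosome 20 (380760 to 397559), encodes the tribbles pseudokinase that binds ATF4, CHOP and AKT. Its probe set 218145_at read 9.34, 9.52 and 9.08 with infliximab at 6 h and 9.34, 9.36 and 9.58 at 24 h. It read 7.93, 7.89 and 7.98 with CDP870 at 6 h, 7.72, 7.83 and 8.02 with CDP870 at 24 h, and 7.94, 7.91 and 7.96 at 0 h. The gap between the lowest infliximab array and the highest other array was wider than the spread within any group. The probe set 1555788_a_at read 7.57, 8.12 and 7.75 with infliximab at 6 h and 8.03, 6.94 and 7.98 at 24 h, against a range of 5.79 to 6.29 over the CDP870 and 0 h arrays. TRIB3 rose by 1.49 ± 0.11 (SE, limma adjusted p = 2.15e-06) at 24 h on 218145_at, or 2.81-fold. On 1555788_a_at it rose by 1.68 ± 0.23 (adjusted p = 0.000595) at 6 h and by 1.52 ± 0.23 (adjusted p = 0.00137) at 24 h. The other genes of the tribbles list, TRIB1, TRIB2 and binding partners of the family among them, did not pass at either time (0 of 7 tested). Of all tested probe sets 8.42% and 6.57% were called at 6 and 24 h, so nothing is read from this count. AKT2 was at -0.27 and AKT1 at -0.33 at 6 h (limma adjusted p = 0.161 and 0.297). TRIB1 was higher with infliximab than with CDP870 at 24 h by 0.55 (adjusted p = 0.0117). It was the 1 of 7 called there, where 6.51% of all tested were called.

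JDP2 encodes a bZIP repressor that pairs with JUN and ATF proteins, and lies on chromosome 14 (75426943 to 75474107). The probe set 226267_at read 6.41, 6.44 and 6.45 with infliximab at 6 h and 6.52, 6.59 and 6.51 at 24 h. It read 4.83, 4.85 and 4.24 with CDP870 at 6 h, 4.94, 4.78 and 4.62 with CDP870 at 24 h, and 4.87, 4.94 and 4.80 at 0 h. Infliximab arrays were close together and above all others. The rise was 2.96-fold at 6 h (log2 1.56 ± 0.14 SE, limma adjusted p = 9.19e-06) and 3.18-fold at 24 h (log2 1.67 ± 0.14 SE, limma adjusted p = 3.94e-06).

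NUPR1 and NFE2L1 had small changes. NUPR1, a small stress-induced chromatin protein on chromosome 16 (28532708 to 28538974), read 4.22, 4.32 and 4.22 with infliximab at 6 h and 4.33, 4.61 and 4.36 at 24 h on 209230_s_at. It read 4.04, 4.20 and 3.85 with CDP870 at 6 h, 4.08, 3.76 and 4.42 with CDP870 at 24 h, and 3.92, 3.87 and 4.14 at 0 h. Infliximab arrays were above those at 0 h but overlapped CDP870 at 24 h, and the changes of 0.28 and 0.46 did not pass (limma adjusted p = 0.278 and 0.0832). The 24 h change passed without CDP870 24 h replicate 12 or 13 (adjusted p = 0.0498 and 0.0426), which alter only the shared spread. NFE2L1, an endoplasmic reticulum-bound bZIP factor known for driving proteasome genes, lies on chromosome 17 (48048359 to 48061545). Its probe set 200759_x_at read 7.42, 7.25 and 7.37 with infliximab at 6 h and 7.86, 7.60 and 7.51 at 24 h. It read 7.18, 7.07 and 7.08 with CDP870 at 6 h, 6.94, 6.93 and 7.13 with CDP870 at 24 h, and 7.09, 7.23 and 6.94 at 0 h. The infliximab arrays lay just above the others, with those at 24 h highest. Its 6 h change of 0.26 ± 0.11 did not pass (adjusted p = 0.163), although it did with array weights (0.30, adjusted p = 0.0259) and without control replicate 3 and infliximab 24 h replicates 5 and 6 (0.33, adjusted p = 0.0481). At 24 h it rose by 0.57 ± 0.11 (SE, limma adjusted p = 0.00647). The 24 h changes of 200758_s_at (0.45) and 214179_s_at (0.44) did not pass (adjusted p = 0.0627 and 0.0505). The change of 214179_s_at passed without control replicate 3 (0.55, adjusted p = 0.0227) or infliximab 24 h replicate 7 (0.54, adjusted p = 0.0187), and that of 200758_s_at without infliximab 24 h replicate 6 (0.59, adjusted p = 0.0216).

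**Figure D3:**
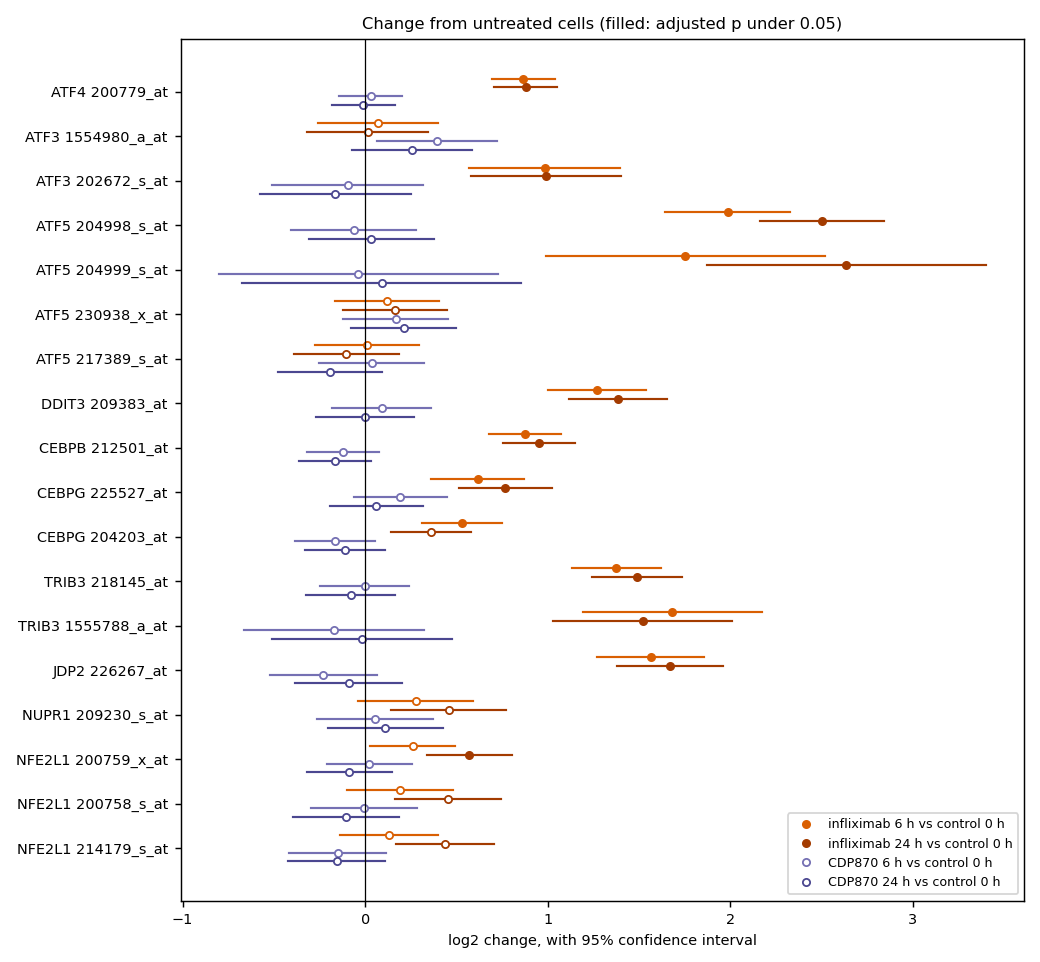
Log2 change from untreated cells at 0 h (horizontal axis) of the 18 tested member probe sets (rows) for infliximab and CDP870 at 6 and 24 h. Points are limma estimates, lines their 95% confidence intervals, and filled points have an adjusted p under 0.05. The infliximab estimates reach 2.64 (ATF5), and the CDP870 estimates lie between -0.23 and 0.39 with no filled point.

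Some of these calls depended on how the spread and the arrays were handled. With the spike-in level as a covariate 7 of the 11 calls at 6 h of infliximab were left, those of ATF4, ATF5 (both probe sets), DDIT3, CEBPB, TRIB3 (218145_at) and JDP2. Of all tested probe sets 181 were then called, against 2432 in the main fit. The calls of TRIB3 1555788_a_at (1.61, limma adjusted p = 0.0532), ATF3 202672_s_at (0.99, adjusted p = 0.163) and both CEBPG probe sets (0.50 and 0.55, adjusted p = 0.189 and 0.202) were lost at changes close to the values above. A fit of only the 6 arrays compared also left 7 calls at 24 h, without those of TRIB3 1555788_a_at, ATF3, CEBPG and NFE2L1. It called 200 of all tested probe sets, against 1899 in the main fit. In mean correlation with their own group, replicates 5, 6 and 7 of infliximab at 24 h were close to each other (0.974, 0.979 and 0.976). In earlier results, not shown here, 3 arrays lay away from the rest, namely replicate 3 at 0 h and replicates 5 and 6 of infliximab at 24 h. Without them 12 of 18 were called at 6 h, against 3107 of 28897 tested probe sets. Infliximab at 24 h is then replicate 7 alone, assumed to vary like the other groups. Its changes from 0 h were 1.2 for ATF3 202672_s_at, 0.50 for NFE2L1 200759_x_at and 0.55 for CEBPG 204203_at.

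CDP870 gave no call among the members at either time (0 of 18 at 6 h and 0 of 18 at 24 h with limma, as for 0% of all tested probe sets). With array weights 11 and 2 of all tested probe sets were called at 6 and 24 h, none of them a member. At an unadjusted p under 0.05 it gave 1 of 18 at 6 h and 0 of 18 at 24 h, against 4.68% and 4.7% of all tested. The 1 was the ATF3 probe set 1554980_a_at, at 0.39 (95% confidence interval 0.06 to 0.72). Median changes of the members were -0.01 at 6 h and -0.05 at 24 h, close to those of all tested probe sets (-0.01 and -0.03). For ATF4 the intervals were -0.14 to 0.20 at 6 h and -0.18 to 0.16 at 24 h. For TRIB3 218145_at they were -0.25 to 0.24 and -0.33 to 0.17, for DDIT3 -0.18 to 0.36 and -0.27 to 0.27, and for ATF5 204998_s_at -0.40 to 0.28 and -0.31 to 0.37. In these genes the intervals leave out changes as large as those with infliximab. The comparisons of both agents with 0 h share the same 3 control arrays.

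The direct comparison of the agents at the same time takes no control array into the difference, although all 15 arrays set the spread. At 6 h 11 of 18 member probe sets were higher with infliximab than with CDP870 and none lower, against 9.07% of all tested called (5.1% higher and 3.98% lower). At 24 h 14 of 18 were higher and none lower, against 6.51% of all tested (4.73% higher and 1.79% lower). Differences of at least 2-fold were found in 8 of 18 at each time, against 0.664% of all tested at 6 h and 0.64% at 24 h. These 8 were the called probe sets of ATF3, ATF5, DDIT3, CEBPB, TRIB3 and JDP2. ATF5 204998_s_at was 4.14-fold higher at 6 h and 5.54-fold higher at 24 h (limma adjusted p = 2.66e-06 and 3.34e-07), and JDP2 226267_at was 3.47-fold and 3.39-fold higher (adjusted p = 2.16e-06 and 2.03e-06). TRIB3 218145_at was 2.60-fold and 2.97-fold higher, CEBPB 2-fold and 2.16-fold, and ATF4 1.79-fold and 1.85-fold. The log2 differences of both CEBPG probe sets were 0.42 and 0.70 at 6 h and 0.71 and 0.47 at 24 h, each past the threshold. That of 225527_at at 6 h lay near it (adjusted p = 0.0391). It was lost in 9 of the 15 fits that left out 1 array, including each infliximab 6 h array (0.36 to 0.48, adjusted p = 0.0597 to 0.151) and each CDP870 6 h array (0.37 to 0.46, adjusted p = 0.0835 to 0.131). The others were control replicate 4 and CDP870 24 h replicates 11 and 12, where the difference stayed 0.42 (adjusted p = 0.0512, 0.0555 and 0.0511).

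All 3 NFE2L1 probe sets were higher with infliximab than with CDP870 at 24 h, by 0.66, 0.56 and 0.59 (limma adjusted p = 0.00226, 0.0235 and 0.0103), and none passed at 6 h (0.24, 0.20 and 0.28). The difference of 200758_s_at was 0.37 without infliximab 24 h replicate 5 (adjusted p = 0.0571), 0.56 without CDP870 24 h replicate 11 (adjusted p = 0.0706) and 0.52 without CDP870 24 h replicate 12 (adjusted p = 0.0917). That of 214179_s_at was 0.55 without CDP870 24 h replicate 12 (adjusted p = 0.0506). In a fit of only the arrays compared, 8 of the 14 calls at 24 h remained, without those of NFE2L1, CEBPG 204203_at, ATF5 204999_s_at and TRIB3 1555788_a_at. Of all tested probe sets 331 were called in it, against 1882 in the main fit. The epithelial markers also differed between the agents, with KRT19 at 1.19 and 1.13 and EPCAM at 1.21 and 0.93 at 6 and 24 h, and all 5 tested genes of that list were called at each time.

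**Figure D4:**
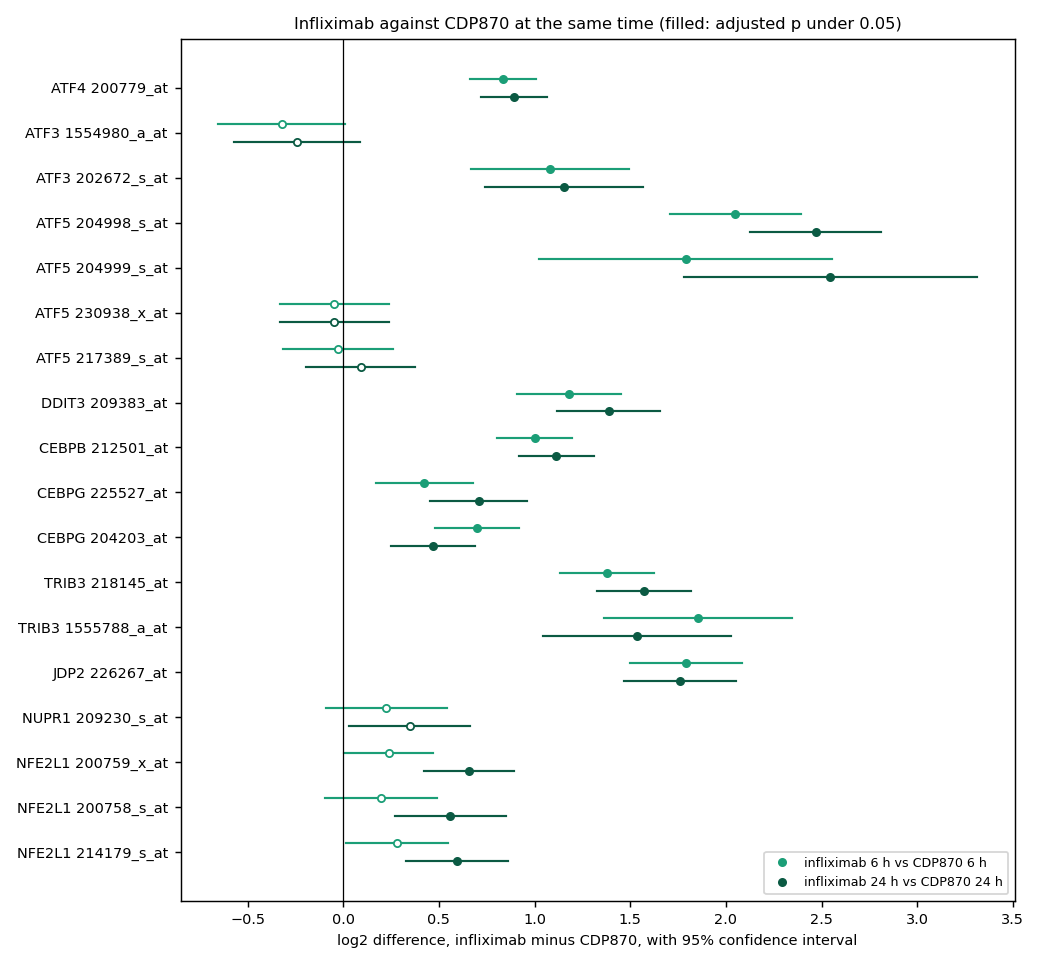
Log2 difference of infliximab minus CDP870 at 6 h and at 24 h (horizontal axis) for the 18 tested member probe sets (rows). Points are limma estimates, lines their 95% confidence intervals, and filled points have an adjusted p under 0.05. The largest differences are those of ATF5 (2.05 and 1.79 at 6 h, 2.47 and 2.55 at 24 h), and the 3 probe sets of NFE2L1 are filled at 24 h and open at 6 h.

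In the probe sets called at both times most of the 24 h change was present at 6 h. This choice leaves out probe sets called at a single time, so a late rise could not enter. Left out were NFE2L1 200759_x_at (0.26 at 6 h and 0.57 at 24 h) and CEBPG 204203_at (0.53 and 0.36). The 6 h change was 98.5% of the 24 h change for ATF4, 99.3% for ATF3 202672_s_at, 91.6% for DDIT3, 92.3% for CEBPB and 93.6% for JDP2. For TRIB3 it was 92.4% on 218145_at and 110.7% on 1555788_a_at. It was lower for CEBPG 225527_at, at 80.4%, and for ATF5, at 79.4% and 66.5% on the probe sets that rose. Between infliximab at 24 h and at 6 h none of 18 members passed (0% of all tested with limma), and 4 of 18 had an unadjusted p under 0.05, against 11.9% of all tested. They were ATF5 204998_s_at (0.52, 95% confidence interval 0.18 to 0.86, adjusted p = 0.3), ATF5 204999_s_at (0.88, adjusted p = 0.359), NFE2L1 200759_x_at (0.31, adjusted p = 0.323) and NFE2L1 214179_s_at (0.31, adjusted p = 0.36). Without infliximab 24 h replicate 7, the lowest of its group for ATF5, both ATF5 probe sets passed (0.70 and 1.31, adjusted p = 0.0101 and 0.0213), as did 2462 of all tested probe sets.

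CDP870 at 24 h against 6 h gave 0 of 18 calls with limma (0% of all tested) and 0 of 18 at an unadjusted p under 0.05, where all tested gave 4.97%. The change of the agents' difference from 6 to 24 h (the interaction of drug and time) also gave 0 of 18 (0% of all tested), and 1 of 18 at an unadjusted p under 0.05 against 9.14% of all tested. The 1 was NFE2L1 200759_x_at, at 0.42 (95% confidence interval 0.09 to 0.75, adjusted p = 0.504). NFE2L1 thus had no called change between the times. Within infliximab at 24 h, replicate 5 was the highest array for 9 of the 18 members, replicate 6 for 3 and replicate 7 for 6.

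Most genes of a list of ATF4 targets were higher with infliximab too. The list, like the members and the other lists, was chosen with earlier results of these data known. Its counts describe these data and are no independent test. Of the 34 tested genes of the ATF4 target list, which holds none of the 10 members, 27 rose and 1 fell at 6 h of infliximab, with a median log2 change of 1.12, where 4.02% of all tested probe sets rose and 4.4% fell. At 24 h 29 rose and 1 fell, with a median of 1.27, where 3.78% of all tested rose and 2.79% fell, and with CDP870 0 of 34 were called with limma at each time (medians -0.07 and -0.05). WARS1, a tryptophanyl-tRNA synthetase, rose by 1.59 ± 0.09 (SE, limma adjusted p = 1.82e-07) at 6 h. PCK2, the mitochondrial PEP carboxykinase, rose by 2.07 ± 0.11 (adjusted p = 4.27e-08) at 24 h and was higher by 2.39 than with CDP870 at 24 h. ASNS, asparagine synthetase, was higher than with CDP870 by 3.38 ± 0.11 at 6 h and 3.39 ± 0.11 at 24 h (adjusted p = 2.01e-10 and 1.87e-10). The list was not uniform. ALDH18A1, an enzyme of proline synthesis, fell by 0.46 at 6 h (adjusted p = 0.00916) and fell by 0.38 at 24 h (adjusted p = 0.0298). PPP1R15A (GADD34), the phosphatase subunit that reverses eIF2alpha phosphorylation, differed by 0.02 at 6 h and 0.74 at 24 h and passed at neither (adjusted p = 0.982 and 0.152). FGF21 (-0.07), GDF15 (-0.10) and KLHL24 (-0.12) did not pass at 24 h.

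Genes upstream of ATF4 mostly did not pass. Of 21 genes of the eIF2alpha kinases, eIF2, eIF2B and the phosphatases, 1 rose and 2 fell at 6 h and 0 rose and 1 fell at 24 h, with medians of -0.04 and 0.02. That is near the 8.42% and 6.57% of all tested probe sets called at 6 and 24 h, and nothing is read from it. The kinase genes EIF2AK1 (-0.06), EIF2AK2 (0.16), EIF2AK3 (-0.04) and EIF2AK4 (-0.06) did not pass at 6 h (limma adjusted p = 0.747, 0.377, 0.866 and 0.817). OMA1, a mitochondrial protease that relays mitochondrial stress, rose by 0.79 ± 0.17 (adjusted p = 0.00989) at 6 h and did not pass at 24 h (0.40). GCN1, which helps activate the kinase GCN2, fell by 0.77 (adjusted p = 0.0085) at 6 h and did not pass at 24 h (-0.20). EIF2B3, a subunit of the exchange factor eIF2B, fell by 0.34 at 6 h and by 0.43 at 24 h (adjusted p = 0.0206 and 0.00738). These are mRNA levels, and phosphorylation of eIF2alpha was not measured.

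Other bZIP factors changed in part. Of 33 tested genes 5 rose and 1 fell at 6 h, and 7 rose and 0 fell at 24 h. The medians were 0.13 and 0.15, and 4.02% and 3.78% of all tested were higher at 6 and 24 h. Those shares include weaker probe sets, whereas each gene of this and the other lists stands by its tested probe set of highest mean. With a filter at the 75th percentile, 1241 of 14622 probe sets were higher at 6 h and 1116 at 24 h. XBP1, the factor of the IRE1 branch of the unfolded protein response, rose by 0.85 ± 0.09 (SE, limma adjusted p = 7.85e-05) at 6 h and by 0.68 ± 0.09 (adjusted p = 0.000537) at 24 h. NFIL3, a bZIP repressor of immune cells, rose by 0.47 and 0.51, FOSL2, an AP-1 subunit, by 0.54 and 0.66, and BATF3 by 0.41 and 0.54. BATF fell by 0.45 at 6 h (adjusted p = 0.045). JUN (-0.11), ATF6 (0.18) and CEBPA (-0.04) did not pass at 6 h. XBP1 was also above its 0 h level with CDP870, by 0.31 at 6 h and 0.33 at 24 h. Neither change passed (limma adjusted p = 0.787 and 0.974).

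Of the 6 tested genes of a list linked to CHOP, 2 rose at 6 h and 1 at 24 h and none fell, against 4.02% and 3.78% of all tested higher. Against CDP870 at 6 h, 2 were higher and DNAJC3, an endoplasmic reticulum co-chaperone, was lower (-0.37, adjusted p = 0.0183). PMAIP1 (NOXA), a pro-apoptotic BH3 protein, rose by 0.76 ± 0.15 (SE, limma adjusted p = 0.00837) at 6 h. TNFRSF10B, the death receptor DR5, rose by 0.46 ± 0.13 (adjusted p = 0.039) at 6 h and by 0.52 ± 0.13 (adjusted p = 0.0257) at 24 h. Of 29 tested proteasome and NFE2L1 processing genes none rose and 4 fell at 6 h, and none rose and 5 fell at 24 h. The medians were -0.19 and -0.16, and 4.4% and 2.79% of all tested were lower. Those shares include weaker probe sets than the ones that stand for the list genes. With a filter at the 75th percentile, 1668 of 14622 probe sets were lower at 6 h and 1055 at 24 h. The counts alone are therefore not read as a decline of the list. PSMD1 fell by 0.58 (adjusted p = 0.00106) and PSMD11 fell by 0.45 (adjusted p = 0.00739) at 6 h, both being subunits of the 19S regulatory particle, and PSMB2, a subunit of the catalytic core, fell by 0.43 (adjusted p = 0.0196).

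**Figure D5:**
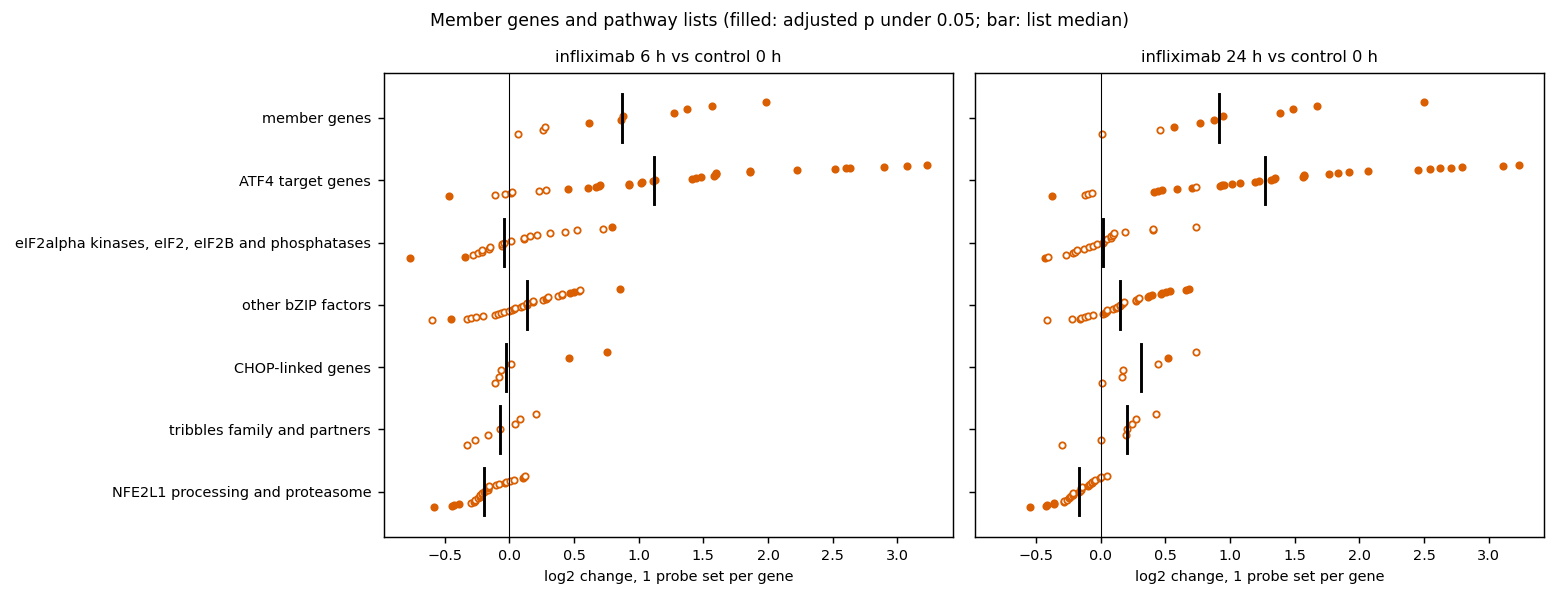
Log2 change from 0 h with infliximab at 6 h and at 24 h (horizontal axes, 1 panel each) for the member genes and the genes of each pathway list (rows), with 1 probe set per gene. Points are genes, filled points have an adjusted p under 0.05, and the bar is the median of the row. The medians of the ATF4 target genes are 1.12 and 1.27, and those of the proteasome list are -0.19 and -0.16.

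For each member called at least once, the genes with the most similar pattern were taken as those with the smallest root mean square difference over the 4 log2 changes from 0 h, on the representative probe set. ATF4 was closest to RFX3 (0.0202 on the log2 scale), PRPSAP1 (0.0335) and PHLDA1 (0.044). CEBPB was closest to WDR45 (0.0271), PDK1 (0.0361) and DHRS3 (0.0425), and NFE2L1 to TRIM8 (0.0213), ROGDI (0.0263) and DOCK11 (0.0354). ATF5 204998_s_at had more distant neighbours, CHAC1 (0.143), P2RX7 (0.237) and PCK2 (0.298). CHAC1 and PCK2 belong to the ATF4 target list. DDIT3 had TP53INP1 (0.0796), RNF41 (0.0858) and its fellow member TRIB3 (0.0964). TRIB3 was closest to FYN (0.0501), APOL6 (0.0656) and AJUBA (0.0814). JDP2 was closest to TSC22D3 (0.0751), TMEM47 (0.0774) and S100P (0.0831), and CEBPG to SPOCK1 (0.0295), TPP1 (0.0344) and OGFRL1 (0.041). For ATF3 the representative was 1554980_a_at, which was not called, and its closest genes were ATCAY (0.0353), B4GALNT3 (0.0383) and ACP4 (0.0433). The 4 changes share the control arrays, so the measure describes likeness in these 15 arrays only.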

How the data were processed

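The authors deposited log2 probe set values of 15 Affymetrix arrays. GCRMA and GCOS 1.3.0 are named, with no role or order, per the submitters' processing notes; the normalization between arrays is not given in the sources used here. Of 54675 probe sets 62 were controls. Gene symbols came from the platform annotation, updated by Entrez gene number through RefSeq (GRCh38.p14), which matched 41037 of 41091 probe sets with 1 symbol.

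limma 3.58.1 under R 4.3.3 fitted 1 mean per group over the whole set of 15 arrays, with eBayes moderated variances, for the 28897 tested probe sets. Tests were two-sided, with Benjamini-Hochberg adjustment within each comparison and a threshold of 0.05. The script was tested on simulated data. Members and lists were chosen with earlier results of these data known. All probe sets of the members are named, with up to 4 called genes per list by p (others, among them the eIF2alpha kinases, JUN, ATF6, CEBPA, ALDH18A1, PPP1R15A, FGF21, GDF15, KLHL24 and BATF, were added after their values were seen) and the 3 most similar genes per member. For a list gene with several tested probe sets, that of highest mean was used. No 2 arrays held identical values. Figures were drawn with matplotlib 3.10.9.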

Additional observations from a re-analysis of the deposited data

How the results depend on the processing

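The alternatives were quantile normalization again, median centring, no filter, a filter at the 75th percentile, only the arrays compared, array weights, the spike-in level as a covariate, trend and robust variances, gene means, leaving out each array, and leaving out control replicate 3 with infliximab 24 h replicates 5 and 6. No member's called change reversed in any of them. With the spike-in covariate 7 of 18 member probe sets were called for infliximab at 6 h against 0 h (11 without it), and with only the arrays compared 7 were called at 24 h (11) and 8 against CDP870 at 24 h (14). Leaving out 1 array gave 11 calls throughout at 6 h, 11 to 13 at 24 h, 10 to 11 against CDP870 at 6 h, 12 to 14 against CDP870 at 24 h, and 0 to 2 between 24 and 6 h of infliximab, the 2 without infliximab 24 h replicate 7. It gave 0 for CDP870 against 0 h, for its times and for the interaction. Without the 3 arrays that stood apart in earlier results, the counts for infliximab were 12 at 6 h and 11 against CDP870 at 6 h. At 24 h infliximab is then replicate 7 alone, assumed to vary like the other groups. Calls were also gained at 24 h against 0 h, by CEBPG 204203_at and NFE2L1 200758_s_at and 214179_s_at with median centring, the 75th percentile filter and trend and robust variances, by NFE2L1 214179_s_at with array weights, and by NUPR1 and NFE2L1 200758_s_at with the spike-in covariate (limma adjusted p = 0.0446 and 0.0442). With gene means over both tested ATF3 probe sets, in place of 1554980_a_at alone, ATF3 was higher with infliximab by 0.53 against 0 h at 6 h (limma adjusted p = 0.00836), and its uncalled differences from CDP870 of -0.32 and -0.24 turned to 0.38 at 6 h and 0.46 at 24 h (adjusted p = 0.0435 and 0.0198).

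Over all tested probe sets the main counts were 2432, 1899, 2622 and 1882 for infliximab at 6 and 24 h against 0 h and against CDP870. Array weights gave 4588 at 6 h against 0 h and 6326 against CDP870, as well as 11 and 2 for CDP870 at 6 and 24 h against 0 h and 280 between its times, the spike-in covariate 181 and 751, and only the arrays compared 200 at 24 h against 0 h, and 5117 and 331 against CDP870 at 6 and 24 h. Without the 3 arrays there were 984 at 24 h against 0 h and 5625 against CDP870 at 6 h. Leaving out 1 array gave 1156 to 3187, 1120 to 2620, 1181 to 3326 and 1074 to 2891, with up to 2462 between the times of infliximab, 1 between those of CDP870 and 920 for the interaction. The causes were not tested. No paired analysis was possible because no label says which arrays of different groups belong together. The replicate numbers run on through the series, each used once, so they cannot show a pairing. The number of arrays limits the precision.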
